A study of Mus musculus with 9 samples.

Results

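The 9 genes described here encode secreted factors that act on blood or lymphatic vessels or on lipid uptake at the vessel wall. They are the angiopoietins Angpt1, Angpt2, and Angpt4, the angiopoietin-like genes Angptl1, Angptl2, and Angptl4, and the VEGF family genes Vegfb, Vegfc, and Pgf. They were chosen by gene symbol from the 43346 genes of the table, and all 9 passed the filter for low counts that left 16877 genes for testing. RNA-Seq was carried out on fibroblasts sorted from the lungs of aged Col1a1-GFP mice, in which the collagen I promoter drives a green fluorescent reporter. The mice were 72 weeks old by the sample labels and 18 months old by the series description, and all carried the reporter. The aged sham group (n = 4) had been given a single intratracheal dose of saline, and the aged bleo group (n = 5) a single dose of bleomycin, a drug that injures the lung epithelium and leads to fibrosis. On day 30, GFP+ cells without CD45 (leukocytes), CD31 (endothelium), or EpCAM (epithelium) were collected. Because the reporter follows collagen I transcription, the gate selects on a gene that itself differed between the groups (4154 ± 407 CPM in aged sham, against 20853 ± 4970 CPM in aged bleo, SD). In bulk libraries of this kind, fewer cells of a type and less RNA per cell cannot be told apart.

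Angiopoietins bind the receptor TIE2, encoded by Tek, on endothelial cells. Angpt1 is an agonist made by mural and stromal cells that keeps vessels quiet, Angpt2 blocks or weakly activates the same receptor and accompanies vessel remodelling, and Angpt4 is the least studied member. The angiopoietin-like proteins share the fold but do not bind TIE2, and Angptl4 inhibits lipoprotein lipase. Vegfb and Pgf bind FLT1, whereas Vegfc acts on FLT4 and drives the growth of lymphatic vessels after it has been cleaved by proteases.

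The libraries held between 49921946 and 68260600 counted reads. Levels are given as CPM, the counts scaled to library size after TMM normalization, and FDR is the Benjamini-Hochberg adjusted p-value of edgeR's quasi-likelihood test over all 16877 genes tested. A gene was called where FDR was below 0.10 and the change exceeded 1.5-fold. By this rule, 23.8% of all tested genes were called, 12.3% higher and 11.5% lower in aged bleo. Of the 9 genes, 2 were called higher (Angpt2 and Angptl4), 1 lower (Angpt4), and 6 were not called. Their median log2 fold change was -0.06, beside 0.01 over all genes tested. Only Angpt4 had levels that did not overlap between the groups, as did 32.2% of all tested genes. An FDR below 0.10 without the limit on fold was reached by 4 of the 9 genes and by 44.8% of all tested genes. No test set the 9 genes against the rest of the table.

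Markers of other cell types were read in every library. Of the genes used in the sort, Epcam was at 0.593 ± 0.141 CPM in aged sham, against 0.668 ± 0.316 CPM in aged bleo (SD). Summed levels of 9 fibroblast markers ran from 29534 to 37556 CPM in aged sham, against 63882 to 84964 CPM in aged bleo. Of these markers, 5 were called higher (Col1a1, Col1a2, Col3a1, Fn1, and Pdgfrb) and 2 lower (Dcn, at 8122 and 2795 CPM, and Tcf21, at 106 and 49.6 CPM). The leukocyte gene Ptprc, which encodes CD45, was nevertheless present at 87.0 ± 59.1 CPM in aged sham, against 65.0 ± 66.3 CPM in aged bleo. Aged sham 4 and aged bleo 4 stood apart by their summed level of 6 neutrophil markers, 924 and 821 CPM, where the other libraries had 70.1 to 416 CPM. Summed macrophage markers ran from 141 to 264 CPM in aged sham, against 445 to 1503 CPM in aged bleo, and 4 of the 8 were called higher. Of 6 smooth muscle markers, 0 were called higher and 2 lower, and of 6 mesothelial markers 0 were called. Of 8 epithelial markers, 1 was higher (Krt8) and 1 lower (Ager). Beside these marker counts, 12.3% of all tested genes were called higher and 11.5% lower.

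**Figure D1:**
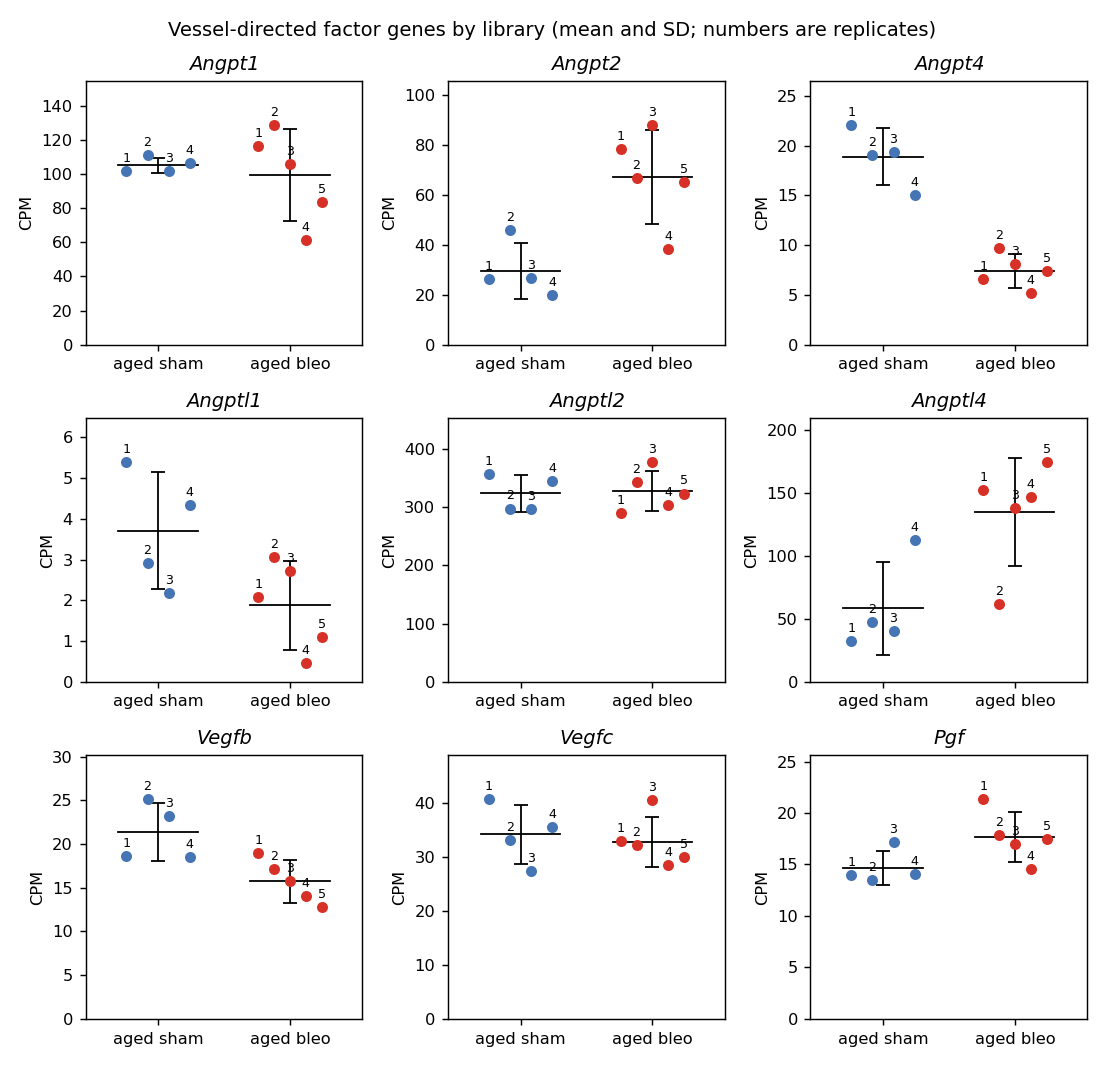
Levels of the 9 genes in each library, with CPM on the vertical axis and the group on the horizontal axis. Points are libraries numbered by replicate, and black lines give the mean and SD. The 5 aged bleo points of Angpt4 (5.14 to 9.76 CPM) all sit under the 4 aged sham points (15.1 to 22.1 CPM), whereas the groups overlap in the other 8 panels.

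The promoters of 2 of the genes are shown, Angpt4 because it was the only member whose groups did not overlap, and Angptl2 because it was the most abundant member and was not called. RefSeq start sites on GRCm38.p6 were matched for 6 of the 9 genes, and each window holds 250 bases before and 50 after the start, on the + strand for both genes. Capitals mark matches on either strand to TATAAA (the TATA box), GCGTG or ACGTG (cores of hypoxia elements), GGAAA (the core of NFAT sites), and TGANTCA (AP-1 sites).
Angpt4, chr2:151910957-151911256: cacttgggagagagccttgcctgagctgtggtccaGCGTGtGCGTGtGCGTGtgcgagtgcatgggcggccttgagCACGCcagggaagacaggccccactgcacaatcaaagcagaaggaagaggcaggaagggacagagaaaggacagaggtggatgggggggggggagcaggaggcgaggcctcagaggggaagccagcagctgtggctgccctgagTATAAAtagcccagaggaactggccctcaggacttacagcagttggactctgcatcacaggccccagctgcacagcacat
Angptl2, chr2:33215711-33216010: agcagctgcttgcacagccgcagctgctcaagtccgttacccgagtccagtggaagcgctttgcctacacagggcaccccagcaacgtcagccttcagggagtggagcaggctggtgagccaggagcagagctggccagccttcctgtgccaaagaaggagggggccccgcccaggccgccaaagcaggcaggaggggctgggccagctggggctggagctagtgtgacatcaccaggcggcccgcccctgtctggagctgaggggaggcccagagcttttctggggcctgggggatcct
The Angpt4 window held 1 TATAAA, beginning 30 bases before the start, and 4 matches to GCGTG, 3 of which stand in a short repeat. The Angptl2 window held 0 matches to any of the 5 motifs, and its GC content was 66.7%, beside 61.3% for Angpt4. Of 32851 mouse promoter windows of the same length, 13.6% held TATAAA, 32.4% GCGTG, 19.6% ACGTG, 61.3% GGAAA, and 7.81% TGANTCA. A match to such short motifs describes the letters only. The gene bodies are Angpt4 at chr2:151911210-151945337 and Angptl2 at chr2:33216069-33247717 on the + strand, Angpt2 at chr8:18690263-18741562, and Angptl4 at chr17:33773750-33781575 on the - strand of GRCm38. Both Angpt4 and Angptl4 overlap with 0 other genes.

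Angpt4 was lower in every aged bleo library. It was at 22.1, 19.0, 19.4, and 15.1 CPM in aged sham 1 to 4, and at 6.57, 9.76, 8.07, 5.14, and 7.36 CPM in aged bleo 1 to 5. The highest aged bleo library was therefore well under the lowest aged sham library. The group means were 18.9 ± 2.88 CPM and 7.38 ± 1.72 CPM (SD), a 2.56-fold lower level in aged bleo (log2 fold change -1.36, SE 0.18, 95% interval -1.77 to -0.95, FDR = 8.72e-04 by edgeR). Angpt4 was called under each of the 20 alternative settings tried.

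Angpt2 was higher in aged bleo. Its levels were 26.2, 45.8, 26.6, and 20.0 CPM in aged sham 1 to 4 and 78.2, 66.5, 87.9, 38.1, and 65.1 CPM in aged bleo 1 to 5. The groups overlapped, since aged bleo 4 lay under aged sham 2, and the 4 remaining bleomycin libraries exceeded every sham library. The means of 29.6 ± 11.2 and 67.2 ± 18.7 CPM (SD) gave a 2.27-fold difference (log2 fold change 1.18, SE 0.29, 95% interval 0.54 to 1.82, FDR = 0.0128 by edgeR). Summed levels of 9 endothelial markers also differed, from 37.4 to 49.9 CPM in aged sham, against 54.2 to 75.3 CPM in aged bleo. Plvap alone had means of 12.7 and 27.9 CPM. Of the 8 tested markers, 3 were called higher (Egfl7, Ptprb, and Plvap), where 12.3% of all tested genes were called higher. The 5 not called had log2 fold changes of 0.37 (Esam), 0.095 (Cldn5), -0.025 (Cdh5), -0.49 (Pecam1), and -0.56 (Vwf). Per length, Angpt2 was at 2.22 to 5.28 FPKM in aged sham and 4.64 to 9.94 FPKM in aged bleo. Plvap, an endothelial diaphragm protein gene, was at 2.21 to 3.17 and 4.79 to 7.56 FPKM in these groups, with a log2 fold change of 1.13. Pecam1 was at 0.385 to 0.441 and 0.169 to 0.461 FPKM, and Cdh5 at 0.0804 to 0.240 and 0.117 to 0.244 FPKM. The part of endothelial RNA in the Angpt2 result was not tested. Angpt2 lies on the opposite strand within the span of Mcph1, with 0 shared exon bases, and Mcph1 was also called higher, at 5.68 ± 0.716 and 10.8 ± 2.73 CPM (log2 fold change 0.92). The library kit does not mark strand, so reads from unspliced RNA of either gene could not be separated by strand, and their part in the result was not tested.

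Angpt1 showed no difference that passed the test. Aged sham 1 to 4 had 102, 111, 102, and 106 CPM, and aged bleo 1 to 5 had 117, 129, 106, 61.2, and 83.7 CPM. Aged bleo spread to both sides of aged sham, and the 2 lowest libraries of all were aged bleo 4 and aged bleo 5. The log2 fold change was -0.08 (SE 0.19, 95% interval -0.51 to 0.34, FDR = 0.758 by edgeR), and the SD was 4.45 CPM in aged sham, against 27.0 CPM in aged bleo. Angpt1 shares 737 exon bases with Gm17473, a noncoding gene on the other strand that had 5.76 and 5.35 CPM, and how reads from the shared bases were counted is not stated.

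The balance of the agonist and its antagonist was compared per length, as the ratio of the deposited FPKM values. The ratio of Angpt1 to Angpt2 was 3.37, 2.10, 3.32, and 4.62 in aged sham 1 to 4 and 1.29, 1.68, 1.04, 1.39, and 1.11 in aged bleo 1 to 5. These ranges did not overlap, with means of 3.35 ± 1.03 and 1.30 ± 0.251 (SD). In every library Angpt1 was still the more abundant transcript. The ratio of Angpt1 to Angpt4 was 3.12 ± 0.572 in aged sham and 7.39 ± 1.39 in aged bleo (SD), also without overlap. Both ratios use Angpt1, which was not called, so they largely repeat the Angpt2 and Angpt4 results. The ratio of Angptl4 to Angptl2 was 0.342 ± 0.196 in aged sham and 0.803 ± 0.287 in aged bleo (SD). Its ranges overlapped (0.175 to 0.625, and 0.346 to 1.03). Of all tested genes, 32.2% had levels that did not overlap between the groups. No test was run on these ratios.

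Angptl4, the lipase inhibitor, was higher in aged bleo on average but spread widely. It was at 32.7, 47.6, 40.5, and 113 CPM in aged sham 1 to 4 and at 152, 62.0, 138, 147, and 175 CPM in aged bleo 1 to 5. Aged sham 4 exceeded aged bleo 2, and the 4 remaining bleomycin libraries exceeded every sham library. The means were 58.4 ± 36.9 and 135 ± 43.0 CPM (SD), a 2.31-fold difference (log2 fold change 1.21, SE 0.41, 95% interval 0.29 to 2.12, FDR = 0.0450 by edgeR). The call was lost without aged sham 1 (1.01, FDR = 0.105), aged sham 2 (1.12, FDR = 0.111), or aged sham 3 (1.07, FDR = 0.118). Without aged sham 4, whose neutrophil markers were the highest, the log2 fold change was 1.74 (FDR = 0.00786 by edgeR). Without both aged sham 4 and aged bleo 4, it was 1.69 (FDR = 0.0114). The part of neutrophil RNA in the result was not tested. Macrophage markers differed between the groups in the same direction as Angptl4, and their part in the result was not tested.

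**Figure D2:**
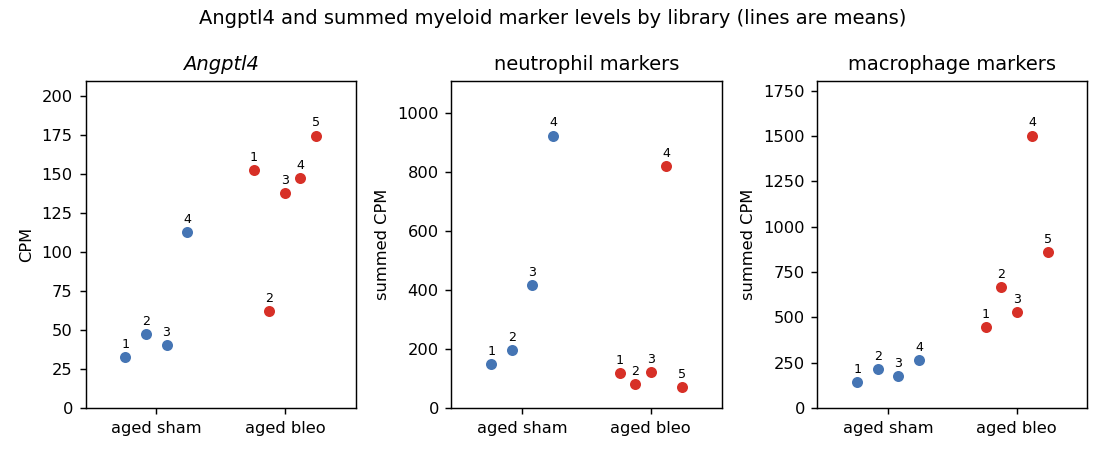
Angptl4 in CPM and the summed CPM of neutrophil and macrophage markers in each library, with the group on the horizontal axis, points numbered by replicate, and lines at the means. Aged sham 4 is the highest aged sham library for Angptl4 (113 CPM) and the highest of all for neutrophil markers (924 CPM), and aged bleo 4 is high for both marker lists.

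Angptl2 and Angptl1 were not called. Angptl2 was at 357, 298, 296, and 346 CPM in aged sham 1 to 4 and at 290.4, 343, 377, 303, and 323 CPM in aged bleo 1 to 5. The groups overlapped over nearly their whole range, and the log2 fold change was 0.01 with a 95% interval of -0.22 to 0.25 (SE 0.10, FDR = 0.926 by edgeR). Angptl2 lies within the span of Ralgps1 on the opposite strand, with 0 shared exon bases, and Ralgps1 fell from 9.83 to 5.22 CPM (log2 fold change -0.91).

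Angptl1 was the weakest of the 9, with 33 to 334 reads per library. It was at 5.39, 2.91, 2.18, and 4.34 CPM in aged sham, against 2.08, 3.06, 2.73, 0.450, and 1.10 CPM in aged bleo. Of the aged bleo libraries, 3 were under all aged sham libraries, and 2 fell within their range. The log2 fold change of -0.98 had a 95% interval from -2.11 to 0.15 (SE 0.50, FDR = 0.158 by edgeR) and did not pass the test. Without aged bleo 2 it was -1.23 and passed the threshold (FDR = 0.0930). Angptl1 shares 465 exon bases with RP24-444I15.1, an annotated transcript of unknown kind on the other strand. Its level was 0.941 ± 0.477 CPM in aged sham, against 0.366 ± 0.195 CPM in aged bleo (log2 fold change -1.37, FDR = 0.0631 by edgeR). Angptl1 also lies within the span of Ralgps2 on the opposite strand, with 0 shared exon bases. Ralgps2 was at 10.7 ± 0.567 and 7.29 ± 0.912 CPM (log2 fold change -0.55, FDR = 0.00513 by edgeR), under the fold limit. The library kit does not mark strand, and the part of reads from these genes in the Angptl1 result was not tested.

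Of the VEGF family members Vegfb, Vegfc, and Pgf, none was called. Vegfb was at 18.6, 25.1, 23.3, and 18.5 CPM in aged sham 1 to 4 and at 18.9, 17.1, 15.8, 14.0, and 12.8 CPM in aged bleo 1 to 5. All aged bleo libraries except aged bleo 1 were below the aged sham range. The log2 fold change of -0.44 (SE 0.14, 95% interval -0.75 to -0.13) had an FDR of 0.0358 by edgeR, but its size was under the 1.5-fold limit. Pgf was at 14.0, 13.4, 17.2, and 14.1 CPM in aged sham, against 21.3, 17.9, 17.0, 14.6, and 17.5 CPM in aged bleo. Only 3 aged bleo libraries exceeded the aged sham range, and the log2 fold change of 0.27 (SE 0.12, 95% interval 0.00 to 0.53) missed the threshold (FDR = 0.107 by edgeR). Vegfc, the lymphatic factor, was at 40.7, 33.2, 27.4, and 35.6 CPM in aged sham, against 32.9, 32.3, 40.5, 28.4, and 30.0 CPM in aged bleo. The aged bleo libraries lay inside the aged sham range, and the log2 fold change was -0.06 (SE 0.13, 95% interval -0.36 to 0.24, FDR = 0.758 by edgeR).

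To order the genes by abundance, the deposited FPKM values were used, which divide by gene length. In aged sham, Angptl2 was the most abundant at 21.6 ± 1.85 FPKM, followed by Angpt1 at 10.4 ± 0.499 FPKM (SD). The range of Angptl2 was above that of Angpt1, and the range of Angpt1 was above that of Vegfc. However, Angptl4 reached 14.1 FPKM in aged sham 4, above every aged sham value of Angpt1 (9.99 to 11.1 FPKM). Vegfc (7.62 ± 1.18), Angptl4 (7.41 ± 4.53), and Vegfb (5.59 ± 0.955) came next, and Angptl4 overlapped with both neighbours. Only in aged sham 4 was Angptl4 above Vegfb, so their order by mean rests on that library. Pgf (3.89 ± 0.469), Angpt4 (3.40 ± 0.546), and Angpt2 (3.38 ± 1.32) had overlapping ranges, and Angptl1 was lowest at 0.545 ± 0.207 FPKM. In aged bleo, the order became Angptl2 (22.4 ± 1.85), Angptl4 (17.7 ± 5.82), Angpt1 (9.98 ± 2.53), Angpt2 (7.79 ± 2.03), and Vegfc (7.49 ± 0.888), each overlapping with the next. Pgf (4.80 ± 0.630) and Vegfb (4.21 ± 0.619) overlapped, and Angpt4 (1.35 ± 0.282) and Angptl1 (0.281 ± 0.159) were separate below them. As a mean share of the summed FPKM of the 9 genes, Angptl4 made up 11.4% in aged sham and 23.2% in aged bleo. Its shares overlapped, from 6.58% to 20.6% in aged sham, against 11.4% to 29.5% in aged bleo. Angpt4 made up 5.37% and 1.79% on average, with ranges of 3.87% to 6.26% and 1.44% to 2.51%.

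**Figure D3:**
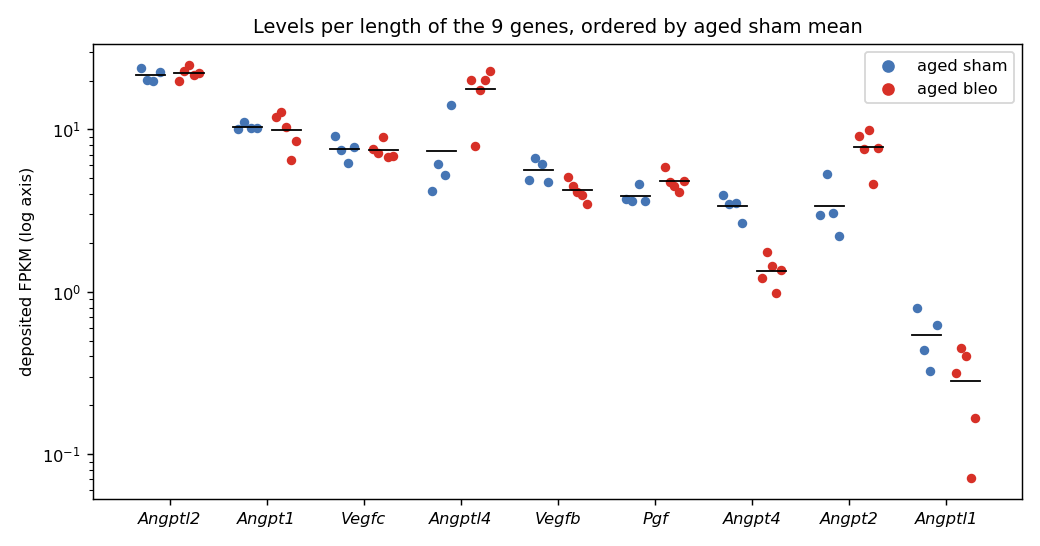
Deposited FPKM (log axis) of the 9 genes in each library, ordered by the aged sham mean, with aged sham in blue, aged bleo in red, and a black line at each mean. Angptl2 stays at the top in both groups (21.6 and 22.4 FPKM), Angptl4 and Angpt2 move up, and Angpt4 moves from 3.40 to 1.35 FPKM.

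The labels give each library a short name, and all aged sham names end in 4, whereas of aged bleo only replicate 4 has that ending. What the ending stands for is not stated, and it cannot be told apart from the treatment for the 4 other bleomycin libraries. With aged bleo 4 alone set against aged sham, the log2 fold change was -1.86 for Angpt4, 0.38 for Angpt2, 1.35 for Angptl4, -0.77 for Angpt1, and -3.02 for Angptl1. These values rest on 1 bleomycin library, the one with 821 CPM of neutrophil and 1503 CPM of macrophage markers, and its own spread cannot be measured.

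The receptor genes of these ligands were measured in the same libraries. Of 7 receptor genes, 2 were called higher (Nrp2 and Kdr), 1 lower (Tek), and 4 were not called, where 23.8% of all tested genes were called. Their median log2 fold change was 0.42, beside 0.01 over all genes tested. Tek, the angiopoietin receptor, was at 157, 149, 160, and 179 CPM in aged sham 1 to 4 and at 32.9, 55.7, 33.7, 9.51, and 12.4 CPM in aged bleo 1 to 5. The groups were far apart, with a log2 fold change of -2.48 (SE 0.46, FDR = 0.00425 by edgeR). Per length, Tek was at 13.5 to 15.6 FPKM in aged sham, while the endothelial receptor Tie1 was at 0.0341 to 0.0872 FPKM there. Of 8 pericyte markers, 3 were called higher and 2 lower, where 23.8% of all tested genes were called. Those higher were Higd1b (0.348 ± 0.188 and 2.23 ± 1.05 CPM, log2 fold change 2.67), Notch3 (62.7 ± 22.9 and 145 ± 32.5 CPM, 1.21), and Pdgfrb (358 ± 30.1 and 565 ± 60.6 CPM, 0.66). Those lower were Abcc9 (649 ± 57.2 and 275 ± 157 CPM, log2 fold change -1.24) and Kcnj8 (97.0 ± 7.49 and 52.7 ± 23.8 CPM, log2 fold change -0.88), which encode subunits of 1 potassium channel. Cspg4 (log2 fold change 0.47), Rgs5 (-0.44), and Mcam (-0.58) were not called. Whether a change in the mix of cells took part in the Tek result was not tested.

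Nrp2, a coreceptor for Vegfc, was at 115, 136, 105, and 88.6 CPM in aged sham, against 304, 277, 360, 395, and 411 CPM in aged bleo. All aged bleo libraries were above aged sham (log2 fold change 1.65, SE 0.16, FDR = 1.68e-04 by edgeR). Nrp1, its relative, had 306 ± 20.9 and 445 ± 64.7 CPM (SD) without overlap, but its log2 fold change of 0.54 (FDR = 0.00866) was under the fold limit. Kdr was low, at 3.25 ± 0.557 and 4.97 ± 1.22 CPM, and its call (log2 fold change 0.61, FDR = 0.05) held in 11 of 20 alternative settings. It was lost without aged sham 2 (0.57), aged sham 3 (0.53), aged bleo 3 (0.57), aged bleo 4 (0.57), or aged bleo 5 (0.51). Tie1, Flt1, and Flt4 were not called.

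Among 5 further ligands of these families, 4 could be tested, with 2 called higher and 1 lower, where 23.8% of all tested genes were called. Figf, which encodes VEGF-D, was at 167, 221, 233, and 208 CPM in aged sham 1 to 4 and at 121, 142, 108, 48.8, and 76.5 CPM in aged bleo 1 to 5. Every aged bleo library was below aged sham (log2 fold change -1.06, SE 0.27, FDR = 0.0161 by edgeR), whereas the related ligand Vegfc had no difference that passed the test. In aged sham, Figf was at 29.0 to 41.0 FPKM, above the range of Angptl2. Angptl7 had 2.35 ± 0.535 and 8.05 ± 6.55 CPM (SD), with a log2 fold change of 1.77 (FDR = 0.0305) and 19.2 CPM in aged bleo 3, and without that library the log2 fold change was 1.16. Gm6484, the symbol that the table gives at the Angptl8 locus, had 0.996 and 1.63 CPM (log2 fold change 0.71, FDR = 0.0409), and its call was lost without aged sham 4 (0.60) or aged bleo 2 (0.58). Angptl6 was at 5.07 and 5.09 CPM and was not called.

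**Figure D4:**
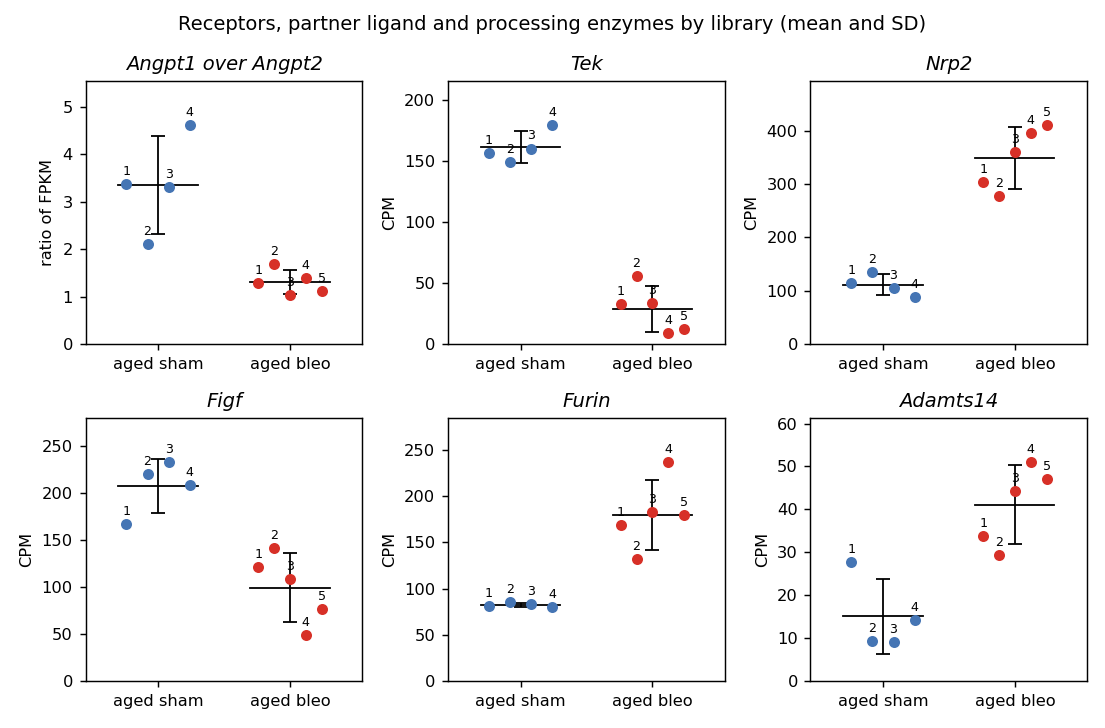
The ratio of Angpt1 to Angpt2 FPKM and the CPM of Tek, Nrp2, Figf, Furin, and Adamts14 in each library, by group on the horizontal axis, with points numbered by replicate and black lines for the mean and SD. The genes shown are called genes picked from longer lists, and the groups do not overlap in any of the 6 panels. Other genes of these lists, such as Kdr and Ccbe1, do overlap, and 32.2% of all tested genes do not. The ratio, Tek, and Figf are lower in aged bleo, and Nrp2, Furin, and Adamts14 are higher.

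Vegfc is made as a precursor that needs proteases and the scaffold Ccbe1 for activation. Of 6 such genes, 2 were called higher and 0 lower, with a median log2 fold change of 0.29. Over all tested genes, 12.3% were called higher and 11.5% lower, and the median was 0.01. Furin, a convertase of many precursors, had 82.3 ± 2.24 CPM in aged sham, against 180 ± 38.0 CPM in aged bleo (SD, log2 fold change 1.13, SE 0.15, FDR = 7.30e-04 by edgeR). Adamts14 had 15.1 ± 8.72 and 41.1 ± 9.19 CPM (log2 fold change 1.44, SE 0.34, FDR = 0.0119), and neither gene overlapped between the groups. Ccbe1 (61.8 and 78.2 CPM, log2 fold change 0.34), Adamts3 (0.24), Pcsk5 (0.23), and Pcsk7 (0.21) were not called. Lymphatic markers were low, with 4 genes summing to 4.01 to 8.31 CPM in aged sham, against 2.82 to 4.37 CPM in aged bleo, and 0 of 4 were called.

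The target of Angptl4, lipoprotein lipase, was not called. Lpl had 302 ± 49.3 CPM in aged sham, against 354 ± 36.0 CPM in aged bleo (SD, log2 fold change 0.23, SE 0.13, FDR = 0.194 by edgeR), and its maturation factor Lmf1 had a log2 fold change of -0.02. Angptl4 is a known target of PPAR receptors and of hypoxia, and both lists were described. Of 7 tested PPAR targets, 1 was called higher and 2 lower, with a median log2 fold change of -0.35. The lipid droplet gene Plin2 was higher (43.8 and 80.8 CPM, log2 fold change 0.89, FDR = 0.00312), and the lipid droplet gene Plin4 (52.6 and 23.6 CPM, -1.16) and the kinase Pdk4 (28.2 and 15.1 CPM, -0.90) were lower. Of 10 hypoxia targets, 2 were called higher and 1 lower, with a median of 0.09. These were Ppfia4 (log2 fold change 1.49, FDR = 9.59e-04), Ankrd37 (1.05, called in 7 of 20 alternative settings), and Car9 (-0.64, called in 11 of 20). With 1 library left out, Ankrd37 was called only without aged bleo 2 or aged bleo 3, and Car9 only without aged sham 4, aged bleo 1, or aged bleo 2. Each list held calls in both directions, where 23.8% of all tested genes were called.

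Further secreted modulators of vessel growth changed in both directions. Of 6 such genes, most of them known as inhibitors, 3 were called higher and 2 lower, where 23.8% of all tested genes were called. The antiangiogenic thrombospondins Thbs1 (1262 ± 457 and 3551 ± 1028 CPM, SD, log2 fold change 1.49, FDR = 0.00583 by edgeR) and Thbs2 (234 and 550 CPM, 1.23) were higher. Vash2, a vasohibin known to promote vessel growth, was also higher (3.12 and 12.4 CPM, 1.99). Serpinf1, which encodes the antiangiogenic factor PEDF, was lower (1027 ± 69.2 and 401 ± 159 CPM, -1.36, FDR = 0.00615), as was the protease Adamts1 (799 and 461 CPM, -0.79, FDR = 0.0183). The inhibitory vasohibin Vash1 was not called (-0.23).

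**Figure D5:**
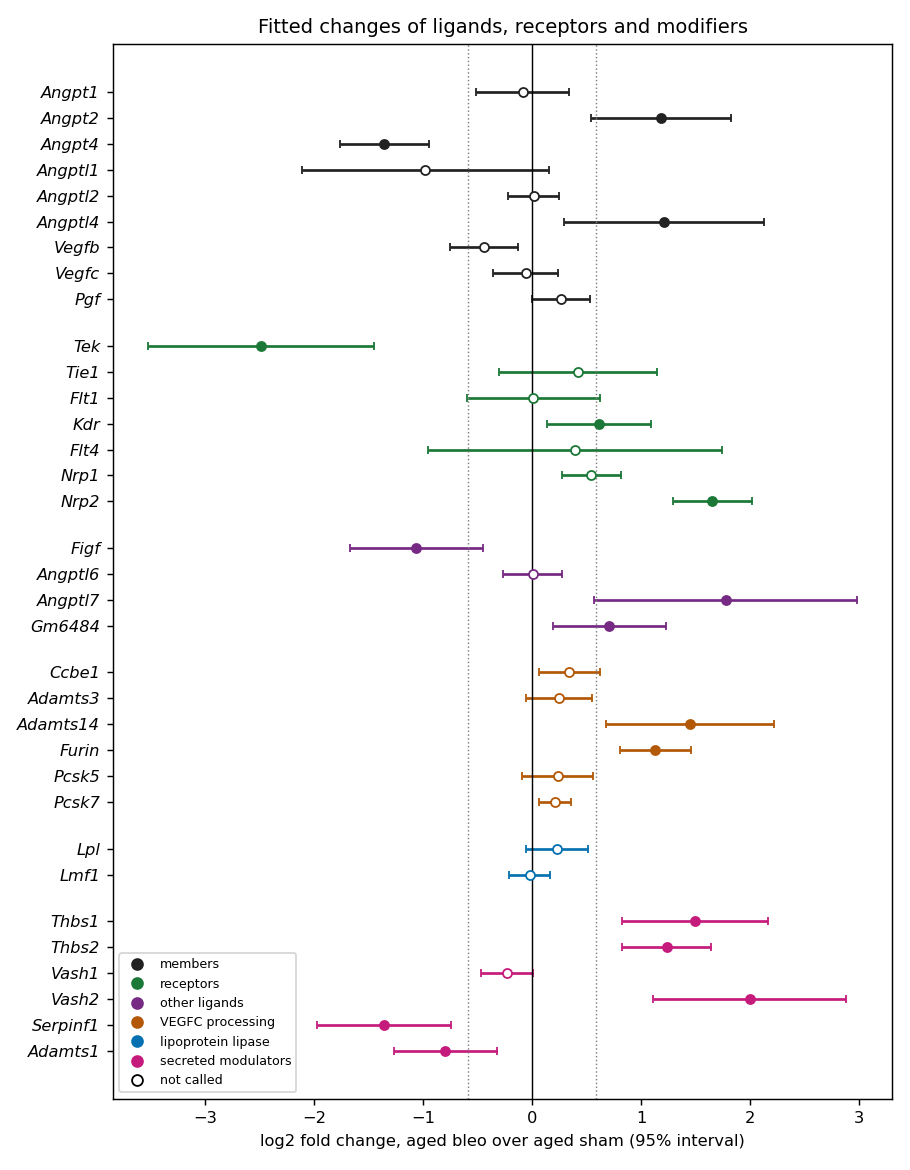
Log2 fold changes of aged bleo over aged sham with 95% intervals on the horizontal axis, for the 9 genes, their receptors, other ligands, VEGFC processing genes, lipase genes, and other secreted modulators. Filled points were called, open points were not, and dotted lines mark a 1.5-fold change. Angpt4 (-1.36) and Tek (-2.48) lie to the left, Angpt2 (1.18), Angptl4 (1.21), and Nrp2 (1.65) to the right, and the interval of Angptl1 is the widest of the 9 genes.

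The genes most alike in pattern were looked up for the 3 called genes, as the Pearson r of log2 CPM over the 9 libraries. The libraries share the treatment difference, so the r after centring each group is given beside it. The 3 genes with the highest r were picked from the tested genes, and the centred r comes from the same libraries. It is therefore not a separate check, and all values are descriptions. Angpt2 was most like Gm26902 (r = 0.985, 0.956 within groups), Scube2 (0.977, 0.932), and Sort1 (0.977, 0.942). Angpt4 was most like Gm17024 (0.992, 0.940), Mapk12 (0.986, 0.891), and Bend7 (0.986, 0.925), all of which were called lower. Angptl4 was most like Ppapdc1b (0.967, 0.940), Ppp2r5c (0.967, 0.942), and Cep83os (0.960, 0.911), none of which was called.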

How the data were processed

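RNA-Seq of sorted lung fibroblasts was used, with 4 libraries of aged sham and 5 of aged bleo mice as the sample labels group them. The authors deposited read counts of 43346 genes, whole numbers without normalization, and FPKM values, which they scaled by gene length. The library total behind the FPKM values, worked back from counts and lengths, was 2.27 to 2.42 times the count sum. The submitters' processing notes name STAR 2.5.2b, Subread, featureCounts, and mm10 (GRCm38). Poly-A libraries were made with a kit that does not mark strand. Of the 42462 gene identifiers shared with GENCODE M21, 78.9% had the same start and end.

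Genes with a mean count of at least 25 entered the test. TMM-normalized counts were compared with edgeR 4.0.16 (glmQLFit and glmQLFTest, R 4.3.3) without covariates. Calls needed FDR below 0.10 together with a change of more than 1.5-fold. A prior count of 2 was used for log2 CPM. The genes named are the 9 members, the genes of fixed lists, genes overlapping a member, and the 3 genes with at least 1 CPM most like each called member. The members and lists were chosen with earlier results of these data known. A gene of the PPAR list is not reported here and was left out of its counts. The labels number the fibroblast samples of each group but name no animals, so p-values measure the spread between these libraries. No pair of libraries was a duplicate. Alternatives were RLE and library size scaling, other filters, DESeq2 1.42.0, limma 3.58.1 on log2 CPM and on log2(FPKM + 0.1) or log2(FPKM + 1), stricter thresholds, each library left out, and replicate number as a block. Leaving out aged sham 4 with aged bleo 4, and using only libraries whose name ends in 4, were added after seeing the data. The tests were tried on simulated counts. The pairing check gave correlations of 0.0922, 0.0623, -0.13, and 0.326 for replicates 1 to 4, so replicate numbers were not taken to pair samples.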

Additional observations from a re-analysis of the deposited data

Results flagged for a closer look

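In 24 groups of values checked, 1 library stood apart from the others of its group by Dixon's criterion in 2, and chance gives about 1 in 20. Pgf in aged sham 3 was at 17.2 CPM, where the other aged sham libraries had 13.4 to 14.1 CPM. The ratio of Angpt1 to Angpt4 FPKM in aged bleo 1 was 9.75, where the other aged bleo libraries had 6.24 to 7.25.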

How the results depend on the processing

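Angpt4 was called in 20, Angpt2 in 19, and Angptl4 in 16 of 20 alternative settings. All tested genes called numbered 1785 with limma on log2(FPKM + 1) and 2158 with an FDR under 0.05 and a fold over 2, beside 4022. Without single libraries, they numbered 3525 to 4597, the members called higher 1 to 2, and the members called lower 1 to 2. The log2 fold changes then ran from 1.01 to 1.74 for Angptl4, -1.23 to -0.73 for Angptl1, -0.15 to 0.034 for Vegfc, -0.040 to 0.063 for Angptl2, and -0.20 to 0.040 for Angpt1. The cause of these changes was not tested.

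The labels do not say what the endings of the library names mean. All aged sham names end in 4, and of aged bleo only replicate 4 does. With those libraries alone, 6177 genes were called, and of the members 0 higher and 4 lower. The spread here comes from aged sham, and the lone aged bleo library is assumed to vary alike. That library had the most leukocyte marker RNA of its group (Ptprc 183 CPM, beside 30.6 to 43.6 CPM). The part of the name ending cannot be told apart from the spread of a lone library and was not tested. Log2 fold changes were -0.77 for Angpt1, 0.38 for Angpt2, -3.02 for Angptl1, -0.082 for Angptl2, 1.35 for Angptl4, and -0.59 for Vegfb. Without aged sham 4 and aged bleo 4, Angpt1 was at 0.034 and 3596 genes were called.

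With replicate number as a block, 3536 genes were called, and log2 fold changes were 1.19 for Angpt2, -1.38 for Angpt4, and 1.19 for Angptl4, all still called, while Kdr was not (0.49). Only replicate 4 correlated best with its own number. Angptl1 had 33 to 334 reads and an SE of 0.50, whereas Gm6484, with 38 to 123 reads, had an SE of 0.23 and was called. The parts of depth and of spread between libraries were not tested.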
